A study of Homo sapiens with 6 samples.

Results

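The 3 metallothionein genes MT1X, MT2A and MT1E were examined in THP-1 cells, an established human monocytic leukaemia line, with and without a short hairpin RNA (shRNA) against RKIP. They were selected on the log2 values of this same comparison and taken by name, from 14884 genes that each had a probe set tied to a single symbol. Each of the 3 has only 1 such probe set: 16819264 for MT1X, 16819207 for MT2A and 16819217 for MT1E. Control cells carried the empty psi-LVRU6GP vector and the others the same vector with the RKIP hairpin, and both populations were kept in 1.5 µg/mL puromycin. Each group held 3 arrays labelled biological replicates. The labels do not say whether separate transductions lay behind them, so every error and p-value rests on array-to-array spread that could be technical. The empty vector expresses no hairpin, so effects of carrying any hairpin cannot be told apart from those of this one.

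Metallothioneins are very small, cysteine-rich proteins that bind zinc and copper, and also toxic metals such as cadmium, through their thiol groups. They buffer intracellular zinc and react with oxidants. Their genes sit in a cluster on chromosome 16 and are switched on by MTF1, a zinc-sensing transcription factor that binds metal response elements in their promoters. Glucocorticoids and inflammatory cytokines induce some members as well. MT2A and the MT1 genes arose by duplication and remain very similar, so a probe set named for one gene may also read transcripts of another. Probe sequences were not used here, and such cross-reading was not tested.

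The promoters of the genes are shown because the metal response element is the feature the family is known for. RefSeq promoter entries on GRCh38.p14 were matched for 5 of the 17 names on the family list: MT1X, MT2A, MT1H, MT1B and MT4. Printed below are the 250 bases before the annotated start, 5′ to 3′ on the + strand, for MT1X (chr16:56682220-56682469), MT2A (chr16:56608334-56608583) and, as a family member whose expression value did not differ between the groups at the threshold used, MT1H (chr16:56669564-56669813). Capitals mark each match to the metal response element core, TGCACNC or TGCGCNC, on either strand.
MT1X: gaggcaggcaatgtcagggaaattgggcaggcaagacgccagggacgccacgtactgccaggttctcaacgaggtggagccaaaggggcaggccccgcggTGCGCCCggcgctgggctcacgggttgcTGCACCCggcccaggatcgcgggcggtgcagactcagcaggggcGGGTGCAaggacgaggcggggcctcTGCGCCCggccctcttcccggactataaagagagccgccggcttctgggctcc
MT2A: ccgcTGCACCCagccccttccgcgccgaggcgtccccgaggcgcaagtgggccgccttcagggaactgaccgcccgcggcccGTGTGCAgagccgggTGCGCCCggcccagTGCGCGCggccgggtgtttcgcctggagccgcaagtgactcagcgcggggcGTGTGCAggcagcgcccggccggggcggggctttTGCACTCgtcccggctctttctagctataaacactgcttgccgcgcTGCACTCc
MT1H: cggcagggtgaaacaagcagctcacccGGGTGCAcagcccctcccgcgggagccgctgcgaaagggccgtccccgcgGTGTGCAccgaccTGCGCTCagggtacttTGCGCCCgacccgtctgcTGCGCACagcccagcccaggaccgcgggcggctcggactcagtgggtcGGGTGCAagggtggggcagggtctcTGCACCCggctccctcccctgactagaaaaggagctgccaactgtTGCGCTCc

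The MT1X window held 4 such cores, the MT2A window 7 and the MT1H window 8. The windows of MT1B and MT4 held 3 each. Among all 27303 promoter windows of the same length, 9.74% held at least 1 TGCACNC and 16.9% at least 1 TGCGCNC. At least 4 cores of either form stood in 0.366% of them. A core on the + strand lay at bases -53 to -47 in MT1X, MT1H and MT1B and at -54 to -48 in MT2A, counted back from the start site. A core on the opposite strand lay at -78 to -72 in both MT1X and MT1H and at -79 to -73 in MT1B. MT2A and MT1B also held the AP-1 motif TGANTCA, present in 6.60% of all windows. In MT2A this motif overlapped a match to the antioxidant response element core TGACNNNGC, which 11.0% of windows hold. MT1X held the antioxidant response element core at -243 to -235 and lacked TGANTCA in this window. MT1B held the same core at -138 to -130. The GC box GGGCGG, found in 42.3% of windows, occurred 2 times each in MT1X and MT2A and 1 time each in MT1H and MT1B. TATAAA, found in 11.1% of windows, was matched in MT1X, MT2A, MT1B and MT4. In global alignments MT1X shared 61.5% of alignment columns with MT1B, 61.2% with MT1H, 54.5% with MT2A and 53.0% with MT4. These matches describe letters in a window and do not show that a factor binds there.

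**Figure D1:**
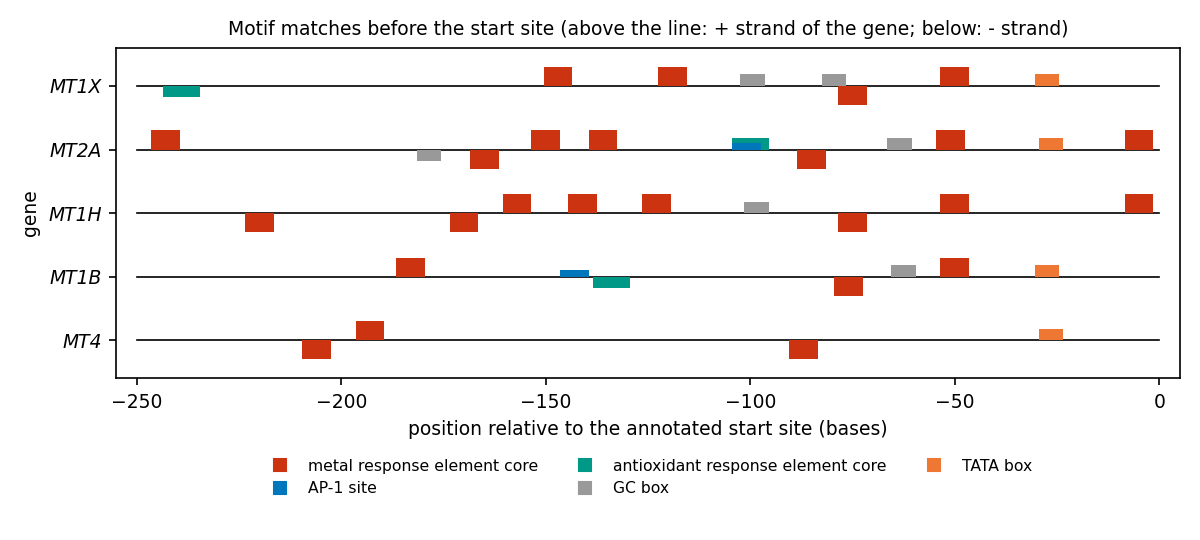
Motif matches in the 250 bases before the annotated start of 5 metallothionein genes, by distance from the start site in bases. Blocks above a line lie on the gene's + strand and blocks below it on the - strand; MT1X shows 4 metal response element cores, MT2A 7, MT1H 8, and MT1B and MT4 3 each, and in MT2A the AP-1 match lies over the antioxidant match.

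The hairpin lowered its target: PEBP1, which encodes RKIP, fell from 9.68 ± 0.14 to 8.22 ± 0.04 (log2, SD, n = 3 each; limma adjusted p = 0.000228). An exact two-sided permutation test of PEBP1 gave p = 0.10, the smallest that 3 arrays against 3 allow. Array medians lay between 4.06 and 4.10, and no array stood apart by this measure. Values are log2 as the authors deposited them, and differences are RKIP shRNA minus control. Of the monocyte markers, 11 of 15 had a value, of which CD14 and MPEG1 stayed below the median of all rows, 4.08, in every array, while the myeloid factor gene SPI1 stood at 8.78 in control cells.

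MT1X was higher in every RKIP shRNA array than in any control array. The control arrays read 8.48, 8.54 and 8.56 and the RKIP shRNA arrays 10.23, 10.19 and 10.22. The groups did not overlap, and arrays of a group lay within 0.08 of each other. Group means were 8.53 ± 0.04 and 10.21 ± 0.02 (SD, n = 3 each), a difference of 1.69 ± 0.06 (SE from limma), or 3.22-fold with a 95% interval from 2.91 to 3.57. Over the 9 pairings of an RKIP shRNA with a control array the difference ran from 1.63 to 1.75. A larger upward difference was seen in 11 of the 14884 genes. In bulk RNA, more cells with MT1X transcripts and more transcript per cell cannot be told apart.

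MT2A, the metallothionein 2 gene, was also higher in every RKIP shRNA array, by less. Its control arrays read 8.40, 8.48 and 8.45. Its RKIP shRNA arrays read 8.99, 8.92 and 9.22, with replicate 3 above the other two. The groups did not overlap, and the lowest RKIP shRNA array stood 0.44 above the highest control array. Means were 8.44 ± 0.04 and 9.05 ± 0.16 (SD, n = 3 each), a difference of 0.60 ± 0.09 (SE), or 1.52-fold with a 95% interval from 1.30 to 1.77. Without RKIP shRNA replicate 3 the difference was 0.51. On the log2 scale the measured MT2A difference was 1.09 smaller than that of MT1X; probe sets can respond unequally to the same change in transcript, and that was not tested.

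MT1E, another member of the metallothionein 1 group, did not share the higher values. Control arrays read 4.72, 4.60 and 4.36 and RKIP shRNA arrays 4.50, 4.45 and 4.38. The groups overlapped: all RKIP shRNA arrays lay within the range of the control arrays, in which replicate 3 was the lowest. Means were 4.56 ± 0.19 and 4.44 ± 0.06 (SD, n = 3 each). The difference was -0.12 ± 0.10 (SE), with a 95% interval from -0.36 to 0.13. Leaving out 1 array at a time moved the value between -0.22 and -0.04. Both group means were less than 0.5 above the median of all rows, and a difference at such a dim probe set can be compressed by background.

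The 3 genes were chosen with this comparison in view, so their differences are given as descriptions without a test. Their standard errors and intervals take no account of that choice and are not to be read as a test. For orientation, 20.2% of all genes passed limma at an adjusted p under 0.05 (10.0% higher and 10.2% lower in RKIP shRNA cells), and the groups did not overlap for 37.9% of genes, or with RKIP shRNA higher for 19.8%. The deviations of single arrays from their group mean did not run in parallel across the 3 genes. Control replicate 1 was the lowest control array for MT1X and MT2A and the highest for MT1E. RKIP shRNA replicate 3 was the highest of its group for MT2A, the lowest for MT1E and the middle one for MT1X.

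**Figure D2:**
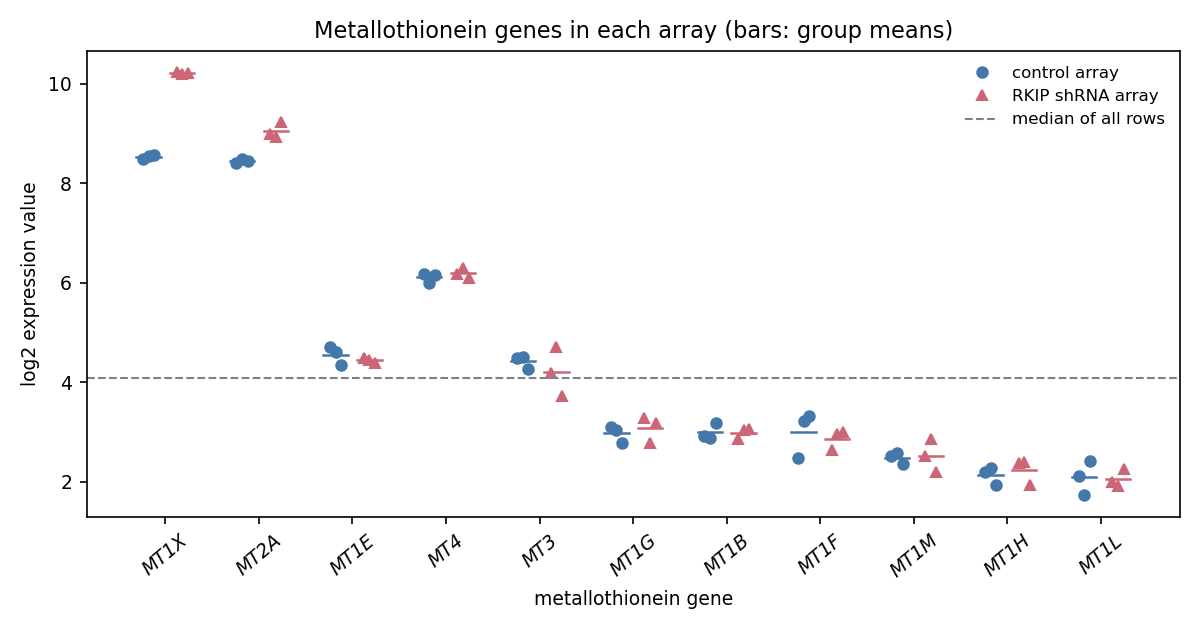
Log2 expression value of 11 metallothionein genes in each array, with circles for the 3 control arrays, triangles for the 3 RKIP shRNA arrays, short bars for group means and a dashed line at the median of all rows, 4.08. The groups stand apart for MT1X and MT2A and overlap for the other 9 genes; heights are not comparable between genes, which have different probe sets.

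The remaining metallothionein genes with a value showed no detectable difference. These were 8 of the 14 other names on the family list, and 0 of the 8 passed limma at an adjusted p under 0.05 in either direction, beside 20.2% of all genes. At an unadjusted p under 0.05 the count was also 0, and the groups overlapped for all 8. Their median log2 difference was 0.02, the same as the median over all genes, 0.02. MT1A was not analysed here, nor were MT1HL1, MT1JP, MT1DP, MT1IP and MT1CP.

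For 6 of these 8 genes both group means were dim, under the all-row median of 4.08. MT1G went from 2.98 ± 0.17 to 3.08 ± 0.26, MT1H from 2.14 ± 0.18 to 2.24 ± 0.26 and MT1M from 2.48 ± 0.12 to 2.53 ± 0.34 (log2, SD, n = 3 each). MT1F went from 3.01 ± 0.46 to 2.87 ± 0.19 and MT1B from 2.99 ± 0.16 to 2.99 ± 0.11 (SD, n = 3 each). MT1L, a transcribed pseudogene, went from 2.09 ± 0.35 to 2.06 ± 0.19 (SD, n = 3 each). At such levels a gene that is off cannot be told from one that is barely on, and the values show only that no bright signal appeared at these probe sets in either group. MT1H, whose window holds 8 metal response element cores, was among these dim genes.

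MT4, known from stratified squamous epithelium, and MT3, known as the growth inhibitory factor of the brain, had group means above the median of all rows. MT4 stood at 6.11 ± 0.10 in control and 6.19 ± 0.11 in RKIP shRNA arrays (SD, n = 3 each). Its difference was 0.08 with a 95% interval from -0.13 to 0.28 (limma adjusted p = 0.631). MT3 read 4.50, 4.52 and 4.28 in control arrays and spread from 3.72 to 4.72 in RKIP shRNA arrays, and its difference of -0.22 became 0.03 without RKIP shRNA replicate 3. Across the 8 genes the bounds of the 95% intervals ran from -0.77 to 0.46. Whether these genes differ from MT1X and MT2A in their response was not tested.

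Genes that lie beside the cluster were looked at next, to see whether the difference extended along the chromosome. Of the 8 protein-coding genes on each side in the RefSeq order, 8 of 16 had a value: CES1, CES5A, NUDT21, OGFOD1 and BBS2 before the cluster and NUP93, CPNE2 and RSPRY1 after it. Only NUP93 passed, beside 20.2% of all genes. NUP93, a scaffold component of the nuclear pore and the first gene after the cluster, read 9.23, 9.18 and 9.19 in control and 9.53, 9.46 and 9.37 in RKIP shRNA arrays. It rose by 0.25 (limma adjusted p = 0.0451), and this call held only without RKIP shRNA replicate 3 among the 6 fits that left out 1 array, where the adjusted p reached 0.139. It was also lost with quantile normalisation. BBS2, the first gene before the cluster, which encodes a subunit of the ciliary BBSome, differed by 0.03 ± 0.07 (SE; limma adjusted p = 0.786). The neighbours' median difference was 0.13 and the highest 0.25, against 0.02 over all genes.

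**Figure D3:**
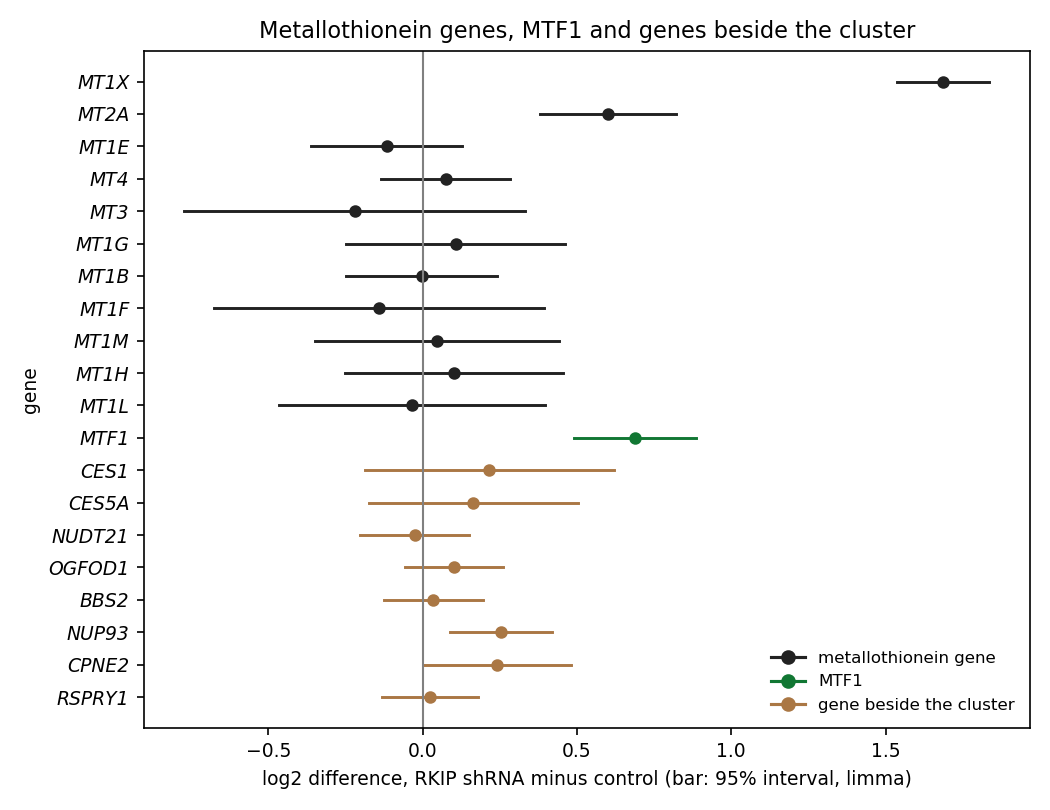
Log2 difference, RKIP shRNA minus control, with 95% intervals from limma, for 11 metallothionein genes, MTF1 and 8 genes beside the metallothionein cluster. MT1X at 1.69 stands apart from the rest, and MT2A at 0.60 and MTF1 at 0.69 lie at similar values. Apart from MT1X and MT2A, the intervals of the metallothionein genes span 0, that of MT1E among them. The intervals of MT1X, MT2A and MT1E take no account of the choice of these genes on this comparison.

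MTF1, the metal-sensing activator of the family, rose in RKIP shRNA cells. Control arrays read 8.66, 8.87 and 8.88 and RKIP shRNA arrays 9.45, 9.49 and 9.54, so the groups did not overlap. Means were 8.81 ± 0.13 and 9.49 ± 0.05 (SD, n = 3 each), a difference of 0.69 ± 0.08 (SE; limma adjusted p = 0.00223), or 1.61-fold. The call held when any 1 array was left out, with adjusted p at most 0.011. MTF1 is controlled largely through zinc binding and entry into the nucleus, so its transcript level is no measure of its activity.

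MTF1 belonged to a list of 8 regulators known from metallothionein promoters or stress induction, of which 6 had a value, 3 rose and 1 fell, beside 10.0% and 10.2% of all genes. KEAP1, the inhibitor of the antioxidant factor NRF2, rose by 0.40 (limma adjusted p = 0.00983). USF1, a factor that binds E-boxes, rose by 0.40 (limma adjusted p = 0.0231), a call lost without control replicate 3 and without any of the RKIP shRNA arrays in turn, at adjusted p up to 0.0758. SP1, which binds GC boxes, fell by 0.30 from 9.88 ± 0.01 to 9.58 ± 0.03 (SD, n = 3 each; limma adjusted p = 0.0156), a call lost without control replicate 2 or 3 or RKIP shRNA replicate 1, at adjusted p up to 0.0585. NFE2L2, the gene of NRF2, differed by 0.08 and the heat shock factor gene HSF1 by 0.15, and neither passed. The median of the list was 0.28. USF2 and the glucocorticoid receptor gene NR3C1 were not analysed here.

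Genes that metals and electrophiles are known to induce together with metallothioneins rose in part. Of 18 listed genes 11 had a value, of which 6 rose and none fell, beside 10.0% and 10.2% of all genes, with a median difference of 0.30. The chaperone gene HSPH1 rose by 0.91, from 9.51 ± 0.06 to 10.43 ± 0.08 (SD, n = 3 each; limma adjusted p = 0.000571). HSPB1, a small heat shock protein gene, rose by 0.67 from 9.10 ± 0.0043 to 9.77 ± 0.03 (SD, n = 3 each; limma adjusted p = 0.000813). HSPA1A and HSPA1B, near-identical copies of the inducible HSP70 gene, rose by 0.72 and 0.68 and may be a single signal. The redox genes SRXN1, which encodes sulfiredoxin, and TXN, thioredoxin, rose by 0.73 and 0.30. TXN kept its call only without control replicate 1 among the 6 fits that left out 1 array, at adjusted p up to 0.122 by limma, and lost it with quantile normalisation (adjusted p = 0.0652), which left 5 genes called. HMOX1, the haem oxygenase gene that cadmium and haem induce strongly, read 4.52, 4.69 and 4.86 in control and 4.45, 4.63 and 4.61 in RKIP shRNA arrays, with a difference of -0.13 (limma adjusted p = 0.474). HSPA6, an HSP70 gene that is silent without strong stress, differed by -0.02 and stayed near the median of all rows.

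Most copper handling genes with a value did not pass limma. Of 16 copper handling genes 9 had a value, of which 2 rose and none fell, with a median of 0.18; 10.0% of all genes rose and 10.2% fell. The 2 were COX11 at 0.36 (limma adjusted p = 0.0104) and SCO1 at 0.28 (limma adjusted p = 0.0191). Both serve copper delivery to cytochrome c oxidase. SCO1 kept its call only without RKIP shRNA replicate 2 or 3 when 1 array was left out. Among the other COX and SCO genes listed, COX17 differed by 0.48 (limma adjusted p = 0.0795) and SCO2 by 0.06 (limma adjusted p = 0.713). Neither passed. ATOX1 and CCS, the copper chaperones of the cytosol, differed by 0.02 and -0.07. With a trended and robust prior 5 copper genes rose, while the count over all genes went from 1495 to 1953. With dim genes left out 4 copper genes rose, and 1887 genes in all did, out of a smaller number fitted. The added copper calls thus came with more calls over all genes. Of 20 iron handling genes 10 had a value, of which 1 rose and 1 fell, shares near the 10.0% and 10.2% of all genes, with a median of 0.01. PCBP1, an RNA-binding protein that also delivers iron to ferritin, rose by 0.28 and lost its call in all 6 fits without 1 array. TF, the transferrin gene, fell by 0.49 at values below the median of all rows, a call lost without RKIP shRNA replicate 1 or 3. The SLC30A zinc exporters and SLC39A zinc importers, 10 and 14 names, were not analysed here, so no zinc transporter is described.

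Glucocorticoid-induced genes went both ways. Of 15 listed genes 9 had a value, of which 2 rose and 2 fell, beside 10.0% and 10.2% of all genes, with a median of 0.02. KLF9 fell by 0.70 (limma adjusted p = 0.00339) and the phosphatase gene DUSP1 by 0.84 (limma adjusted p = 0.00451). ALOX5AP, which encodes the 5-lipoxygenase activating protein, rose by 0.50 and ZBTB16, a zinc finger gene, by 0.57, the latter losing its call without control replicate 2 or RKIP shRNA replicate 1. FKBP5, a usual readout of the glucocorticoid receptor, differed by -0.01 and PER1 by -0.21, and neither passed.

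**Figure D4:**
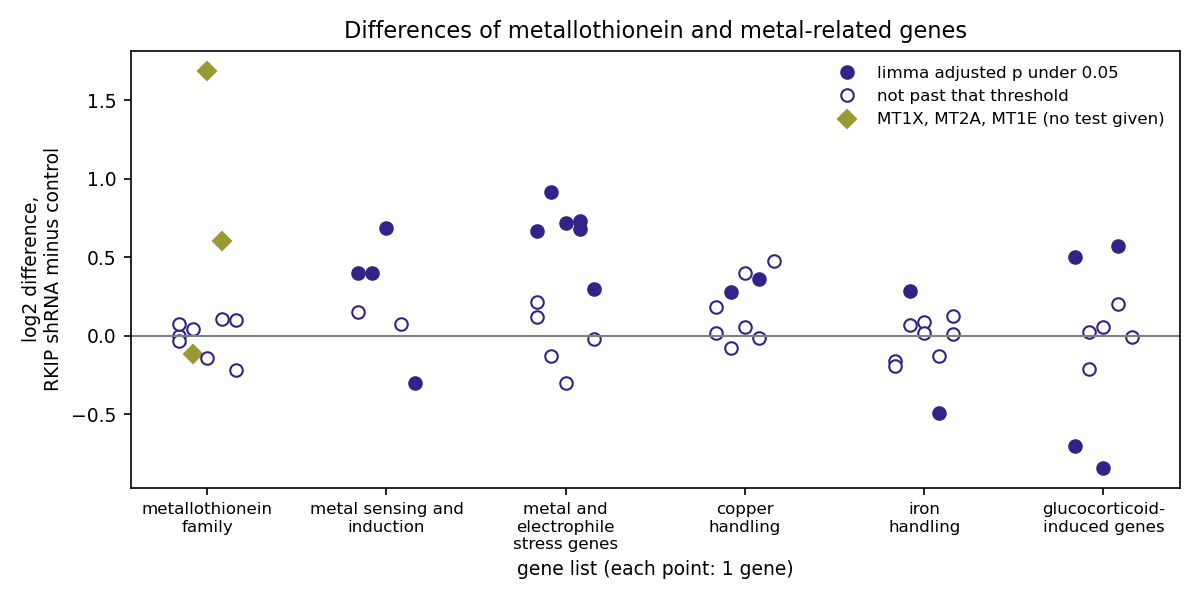
Log2 difference, RKIP shRNA minus control, of each measured gene on 6 lists, with filled circles for genes past a limma adjusted p of 0.05, open circles for the others and diamonds for MT1X, MT2A and MT1E, which were not tested. The metal and electrophile list has 6 filled points, all above 0, the sensing list 3 above and 1 below, and the glucocorticoid list 2 on each side.

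Promoters rich in the metal response element core were also read against expression, as a description. Outside the metallothionein family, 41 measured genes had at least 4 cores in the 250 bases before the start, and 8 of them rose and 4 fell. That is 19.5% and 9.76%, where 11.6% and 11.0% of the 10748 measured genes with a promoter window did. Their median difference was 0.01. With at least 5 cores, 2 of 14 rose and 2 fell. ASPHD2 with 6 cores fell by 0.89, while LIAT1, also with 6, rose by 0.60; both were picked after their values were seen.

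The genes whose profile over the 6 arrays lay nearest to each metallothionein gene differed from one to the next. For MT1X they were CHI3L1, the chitinase-like glycoprotein gene, SNAR-B1, a small non-coding RNA gene, and IL1RL1, the interleukin 33 receptor gene, at root-mean-square distances of 0.12, 0.13 and 0.14 on the log2 scale. For MT2A they were TMED9, a cargo receptor gene of the secretory pathway, SYK, a tyrosine kinase gene of immune receptors, and RPL26L1, a ribosomal protein-like gene, at 0.03, 0.04 and 0.04. For MT1E they were DCAF4, LIMCH1 and ZNF695, at 0.03, 0.04 and 0.04, none of which passed limma. The distance between MT1X and MT2A themselves was 0.55, and MT1E lay 0.40 from MT2A. A profile over 6 arrays is set mainly by the difference between the groups, and 364 genes had a Pearson r above 0.98 with MT1X over these 6 arrays.

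**Figure D5:**
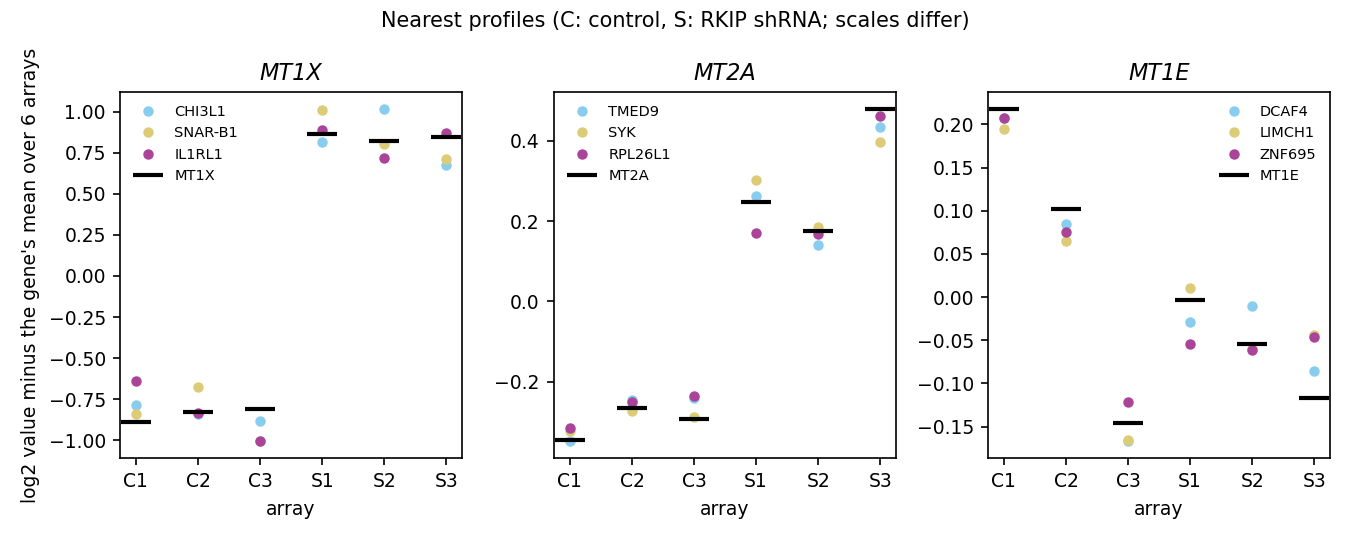
Log2 value minus the gene's own mean over 6 arrays, for MT1X, MT2A and MT1E (black bars) and their 3 nearest genes each (points), in control (C1 to C3) and RKIP shRNA (S1 to S3) arrays, with a separate scale in each panel. MT1X and MT2A are higher in all 3 RKIP shRNA arrays, MT2A most in S3, while the MT1E values spread most among the control arrays.

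Some cell type markers, monocyte markers among them, differed between the groups and others did not. Their part in the metallothionein differences was not tested. Of 14 eosinophil, basophil and mast cell genes 9 had a value, of which 4 rose and none fell, beside 10.0% and 10.2% of all genes. These were CLC, EPX, GATA2 and HDC, of which HDC kept its call only without RKIP shRNA replicate 1 or 2. The summed level of the 9 genes on the linear scale was 338 to 348 in control and 4315 to 4709 in RKIP shRNA arrays, or 229 to 238 and 297 to 321 without CLC and EPX, while PRG3, CPA3, TPSAB1 and SIGLEC8 stayed below the median of all rows in every array. The sum over 11 monocyte markers was 1749 to 1791 and 2813 to 2908, or 1556 to 1596 and 1725 to 1790 without LYZ, which carried most of that difference; 4 rose, LYZ, TLR4, SPI1 and CD68, and 3 fell, CD86, CD4 and CTSS, or 1 without control replicate 2 or 3 or RKIP shRNA replicate 1. Metallothioneins are also abundant in epithelial and stromal cells. The sum over 7 of 8 epithelial markers was 418 to 441 in control and 365 to 381 in RKIP shRNA arrays, with EPCAM, CLDN4 and ESRP1 below the median of all rows in every array. Of these markers 1 fell, KRT18, which carried most of the difference in the sum. The sum over 4 of 8 fibroblast markers was 46.8 to 52.0 and 58.5 to 65.5, with DCN and LUM below the median of all rows throughout. Of these markers 1 rose, FN1, which carried most of the difference in the sum. Its control mean of 3.98 lay below the median of all rows, and its RKIP shRNA mean was 4.84. The sums over 3 of 6 T cell markers were 70.9 to 85.4 and 80.7 to 89.3, with CD5 called higher, and those over 2 of 6 B cell markers 124 to 134 and 108 to 120, with VPREB3 called lower. The calls of KRT18, CD5 and VPREB3 were lost in 4, 5 and 5 of the 6 fits without 1 array. KRT18 kept its call only without RKIP shRNA replicate 2 or 3, CD5 only without control replicate 3 and VPREB3 only without control replicate 2. KRT18 has 2 probe sets, and with their mean its difference was -0.13 (limma adjusted p = 0.375). That left no epithelial marker called. The 1 erythroid marker with a value, KLF1, summed to 27.3 to 37.1 and 34.0 to 41.8 and did not pass limma.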

How the data were processed

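Total RNA, 250 ng per array, was labelled and hybridised to Affymetrix Human Gene 2.0 ST arrays, per the labels and the series' design text. The authors deposited a table of log2 values, a scale read from their range of 0.72 to 14.0. The summarisation, normalisation and genome build were not given in the sources used here, and detection calls were not used here.

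Of 53617 rows, 16098 had 1 gene symbol, 0 had several and 37519 were left unnamed here. Per gene the probe set with the highest mean over 6 arrays was kept. RKIP shRNA minus control was fitted over all 14884 genes with limma 3.58.1 in R 4.3.3, with Benjamini-Hochberg adjustment over all genes and calls at an adjusted p under 0.05. The array number limits precision. The fit was tested on simulated data.

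The members and the 15 gene lists were chosen with earlier results of these data known, and the eosinophil list last. Named genes were PEBP1, the measured metallothionein genes, up to 4 called genes per list by p (or the 2 with the largest difference), up to 6 called neighbours, and the 3 nearest profiles per member. Other genes named were chosen after their values were seen. Promoter windows come from RefSeq; alignments used Biopython 1.88, with scores of 1 for a match, -1 for a mismatch, -3 to open a gap and -1 to extend one. Figures used matplotlib 3.10.9. Replicate numbers were not treated as pairs in the main fit. Alternatives were quantile normalisation, median centring, leaving out dim genes, the mean of a gene's probe sets, a trended and robust prior, a replicate block and leaving out each array.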

Additional observations from a re-analysis of the deposited data

How the results depend on the processing

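With 3 arrays per group, brightness and array number limit what could be seen. Across all 12 alternatives MT1X stayed between 1.66 and 1.70, MT2A between 0.51 and 0.67 and PEBP1 between -1.54 and -1.41, and MT1E stayed below 0, between -0.22 and -0.04. None of the other 8 metallothionein genes was called in any alternative; without dim genes, only those above the median brightness of all rows could be fitted. Their small differences changed sign in some: MT1B was 0.0051 with median centring, and on leaving out 1 array MT1B ranged from -0.0547 to 0.0875, MT1F from -0.41 to 0.0156, MT1H from -0.0015 to 0.25, MT1L from -0.22 to 0.13, MT1M from -0.12 to 0.22 and MT3 from -0.47 to 0.0264. Leaving out 1 array lowered the count of genes called higher from 1495 to between 963 and 1212. The lowest count was without RKIP shRNA replicate 1, with 969 without control replicate 2 and 983 without control replicate 3. Each of these fits also had fewer arrays, and the cause of the lower counts was not tested. Across genes, same-numbered arrays did not deviate together (correlations 0.02, 0.00 and -0.02), and 3 of 6 arrays correlated best with their own number. Single genes could differ from this. Adding a replicate block took the limma SE from 0.23 to 0.12 for MT1F and from 0.15 to 0.08 for MT1H. For MT1X the SE went from 0.06 to 0.07. With the replicate block MT1X was 1.69, MT2A 0.60 and MT1E -0.12, and the limma calls lost with it were those of USF1 (adjusted p = 0.0556), SP1 (0.0575), KRT18 (0.0614), SCO1 (0.0671), PCBP1 (0.0699), HDC (0.0726), CD5 (0.075), TXN (0.0806) and NUP93 (0.0916) among the genes named by rule and SRXN1 and TXN.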
